A study of Rattus norvegicus with 6 samples.

Results

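The genes of the proteasome were examined in polyA RNA-seq of rat cortical neural progenitors. They were found by name, as every gene whose symbol in the deposited tables begins with Psm followed by a letter from a to g and a number, and 49 of the 17337 gene names in the tables met this rule. The cells came from the cortices of Sprague Dawley rat embryos of either sex at embryonic day 14 (E14), were grown with bFGF and EGF and were collected after the second passage, without any treatment. All cells belonged to 1 condition: cultures A and B are its 2 biological replicates, with technical libraries A1 and A2 of the first and B1 and B2 of the second. Start-seq, which maps the starts of short capped nuclear RNAs, was made by the study from the same RNA and was not analysed here. With 1 condition no groups could be tested, so the values are given as descriptions, and the difference between A and B serves as the measure of error.

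The proteasome is the large protease that degrades proteins tagged with ubiquitin, and every eukaryotic cell needs it. Its barrel-shaped core particle (20S) is built from stacked rings of alpha and beta subunits, and some of the beta subunits carry the active sites facing the inside of the barrel. A regulatory particle (19S) caps the core: its base holds a ring of ATPases that unfold the substrate, and its lid removes the ubiquitin chain. Cells exposed to interferon replace the active beta subunits with immunoproteasome versions, which favour peptides suited to antigen presentation.

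Levels are given as FPKM, the fragments of a gene scaled to the length of its transcripts and to the depth of the library, so that genes can be compared with each other. The mean and SD are over replicates A and B after averaging the technical libraries (n = 2). All 9 neural progenitor markers found in the tables were above 1 FPKM, with means from 33.9 FPKM for *Pax6* to 11840 FPKM for *Fabp7*. *Fabp7*, a glial fatty acid binding protein, was at 17678 FPKM in A and 6003 FPKM in B. *Vim*, an intermediate filament gene, was at 3026 and 3555 FPKM, and the other 7 markers summed to 1331 FPKM in A and 839 FPKM in B. Of 8 neuron markers, 6 reached a mean of 1 FPKM. None of 10 microglial and immune markers and none of 6 endothelial markers reached a mean of 1 FPKM. All 10 mesenchymal and meningeal markers, collagen genes among them, were also present, and their summed FPKM was 673 and 653 in A1 and A2 against 2550 and 3068 in B1 and B2. Library B2 was shallower than the others, since 1 FPKM corresponded to a mean read depth of 6.83 there and of 22.7 to 24.4 in the other libraries.

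The promoters of the 6 catalytic subunit genes are shown because their constitutive and immunoproteasome forms take the same positions in the core but differed widely in level. Each run is the RefSeq sequence of build GRCr8 from 250 bases before to 50 bases after the annotated start, read 5′ to 3′ on the strand of the gene, with matches to the motifs described further on in capitals.
*Psmb5*, chr15:32047330-32047629, minus strand: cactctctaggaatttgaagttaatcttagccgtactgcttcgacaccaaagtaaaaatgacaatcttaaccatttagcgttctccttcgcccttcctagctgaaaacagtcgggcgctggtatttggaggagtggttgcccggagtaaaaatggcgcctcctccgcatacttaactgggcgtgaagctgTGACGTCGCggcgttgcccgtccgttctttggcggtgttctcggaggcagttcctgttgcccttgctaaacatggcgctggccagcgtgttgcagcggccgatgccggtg
*Psmb6*, chr10:55737638-55737937, plus strand: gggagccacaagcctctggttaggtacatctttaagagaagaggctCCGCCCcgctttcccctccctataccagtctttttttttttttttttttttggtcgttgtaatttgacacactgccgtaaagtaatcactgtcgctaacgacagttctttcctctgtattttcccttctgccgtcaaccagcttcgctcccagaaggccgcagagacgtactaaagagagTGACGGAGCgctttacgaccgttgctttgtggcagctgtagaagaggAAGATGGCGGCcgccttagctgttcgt
*Psmb7*, chr3:42827421-42827720, minus strand: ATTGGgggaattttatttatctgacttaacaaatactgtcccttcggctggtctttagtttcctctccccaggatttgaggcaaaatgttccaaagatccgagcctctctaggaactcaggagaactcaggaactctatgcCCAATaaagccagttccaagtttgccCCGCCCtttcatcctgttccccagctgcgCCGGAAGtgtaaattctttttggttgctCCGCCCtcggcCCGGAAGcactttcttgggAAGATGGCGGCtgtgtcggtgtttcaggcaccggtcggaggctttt
*Psmb8*, chr20:4656982-4657281, minus strand: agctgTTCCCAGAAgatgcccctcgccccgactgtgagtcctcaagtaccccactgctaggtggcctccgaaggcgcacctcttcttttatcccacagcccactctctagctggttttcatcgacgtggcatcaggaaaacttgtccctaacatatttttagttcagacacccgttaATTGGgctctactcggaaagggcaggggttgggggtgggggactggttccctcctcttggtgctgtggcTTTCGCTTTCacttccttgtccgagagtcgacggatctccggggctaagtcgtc
*Psmb9*, chr20:4668750-4669049, plus strand: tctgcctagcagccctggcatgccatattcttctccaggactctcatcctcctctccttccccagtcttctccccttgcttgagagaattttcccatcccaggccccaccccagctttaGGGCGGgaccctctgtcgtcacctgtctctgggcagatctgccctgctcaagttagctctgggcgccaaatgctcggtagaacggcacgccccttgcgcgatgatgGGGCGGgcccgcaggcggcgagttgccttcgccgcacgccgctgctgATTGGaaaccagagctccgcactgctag
*Psmb10*, chr19:50743243-50743542, minus strand: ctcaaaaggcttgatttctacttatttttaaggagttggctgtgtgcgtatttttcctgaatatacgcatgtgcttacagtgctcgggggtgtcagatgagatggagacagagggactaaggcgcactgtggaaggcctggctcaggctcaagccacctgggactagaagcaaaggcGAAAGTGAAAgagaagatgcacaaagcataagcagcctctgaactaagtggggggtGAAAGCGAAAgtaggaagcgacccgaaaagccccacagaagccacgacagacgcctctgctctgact
No 2 of the capital runs overlapped.

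Of the 49 genes, 47 had a mean of at least 1 FPKM, against 60.5% of all genes in the tables. A mean of at least 100 FPKM was reached by 23 of the 49, against 6.14% of all genes. The median of the 47 expressed members was 94.3 FPKM, and the median of all genes at or above 1 FPKM was 16.6 FPKM. Together the members held 0.992 ± 0.00847% of all TPM, a transcript abundance scaled to the same total in each library. The members below 1 FPKM were *Psma8*, the alpha subunit of the testis, and *Psmb11*, the catalytic subunit of the thymus cortex. *Psma8* was at 0.010 and 0.032 FPKM in A1 and A2 and was listed at 0 in B1 and B2. *Psmb11* was at 0.655, 0.869, 0.125 and 0.436 FPKM in A1, A2, B1 and B2.

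**Figure D1:**
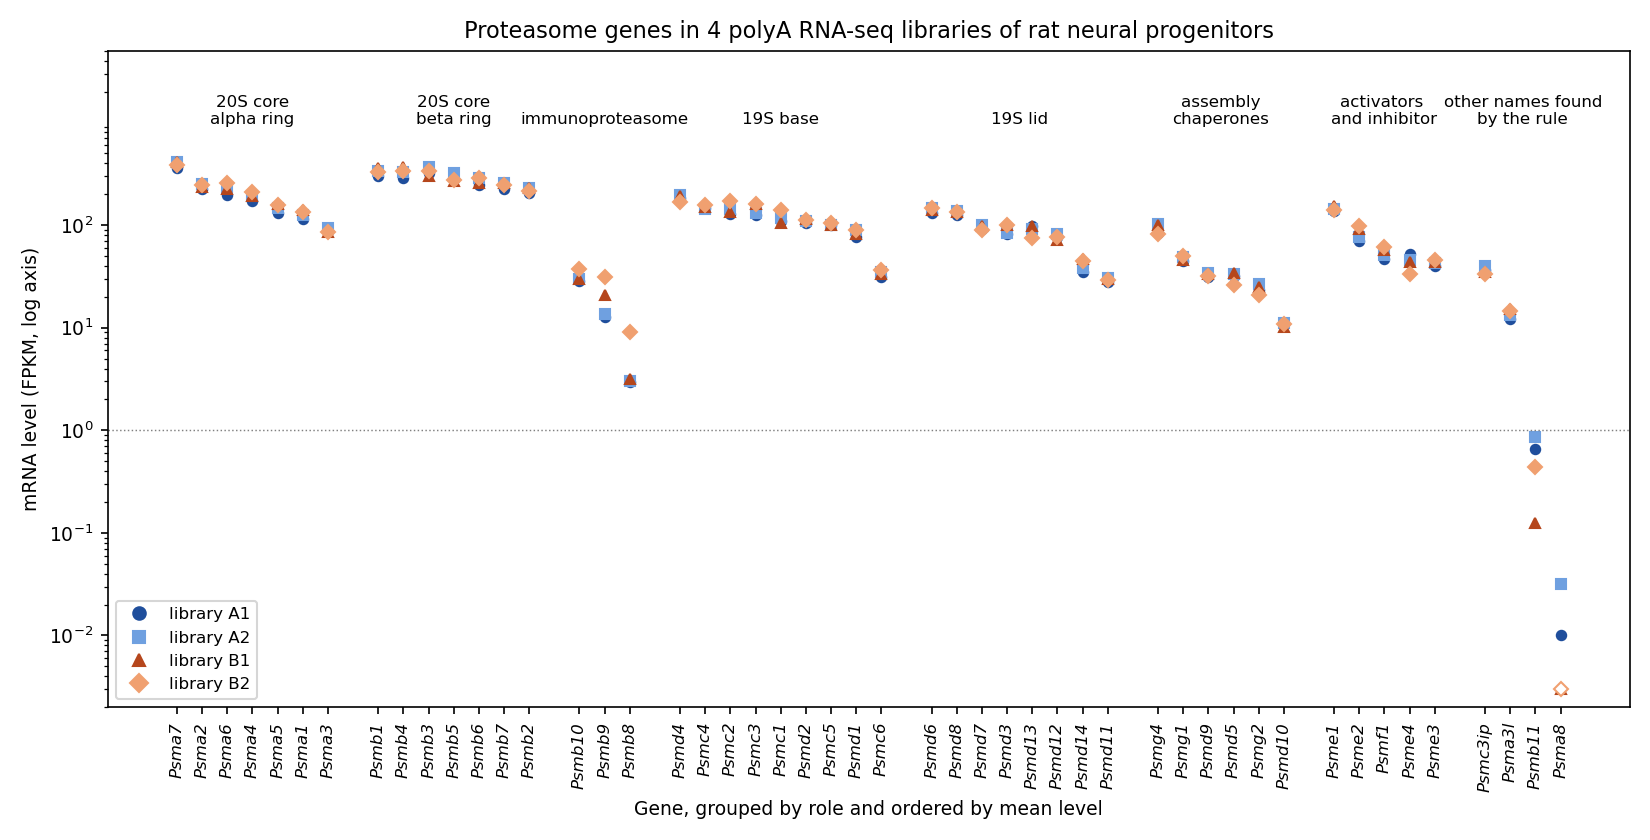
FPKM on a log axis of the 49 proteasome genes in libraries A1, A2, B1 and B2, grouped by role and ordered by mean within a group; the dotted line is 1 FPKM and open marks at the lower edge are values listed at 0. Subunits of the core lie highest (medians of 223.7 to 254.3 FPKM per library), the immunoproteasome genes lie below them at 2.94 to 36.9 FPKM, and *Psma8* and *Psmb11* lie under the line.

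The 14 constitutive core subunits were higher than the 17 subunits of the regulatory particle. The median of the core was 243.9 ± 6.87 FPKM and that of the regulatory particle 101.1 ± 1.68 FPKM (SD, n = 2). The ratio of the medians was 2.24, 2.54, 2.46 and 2.40 in A1, A2, B1 and B2. On the log2(FPKM + 1) scale the core exceeded the regulatory particle by 1.26 ± 0.0185, a difference far larger than the spread between replicates. By mean level, 11 of the 14 core subunits lay above *Psmd4*, the highest gene of the regulatory particle, and 13 of 14 core subunits but 9 of 17 regulatory particle subunits reached 100 FPKM.

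The 7 alpha subunits, which form the outer rings and the gate of the core, were less even than the 7 beta subunits. Their median was 191.3 ± 14.2 FPKM and that of the beta subunits 289.8 ± 14.3 FPKM. *Psma7* (alpha4), at chr3:175420042-175426384 of rn6 (minus strand), was the highest of all members at 360.3, 410.0, 413.8 and 383.2 FPKM in A1, A2, B1 and B2, and ranked 220 among all genes. *Psma3* (alpha7), the lowest, was at 87.5, 94.2, 85.6 and 86.4 FPKM, so *Psma7* was 4.44 ± 0.283 times as high. The tables list a second gene, *Psma3l*, on the same strand of chromosome 6 over 18902 bp of *Psma3*, at 12.1, 13.2, 15.1 and 14.5 FPKM. RefSeq of GRCr8 holds *Psma3l* as another name of *Psma3*, and reads of the pair may have been divided between them. With both summed the level was 102.2 ± 1.90 FPKM, and *Psma7* was still 3.84 ± 0.167 times as high. The other alpha subunits lay between 115.7 FPKM (*Psma1* in A1) and 254.2 FPKM (*Psma6* in B2).

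The beta subunits lay within a narrow range, from *Psmb2* (beta4) to *Psmb1* (beta6). *Psmb2* was at 204.7, 230.3, 227.9 and 216.8 FPKM in A1, A2, B1 and B2. *Psmb1* was at 302.4, 339.3, 363.7 and 325.9 FPKM, or 1.51 ± 0.0526 times *Psmb2*. *Psmb2* was the lowest beta subunit in each library, and the highest single value was 370.3 FPKM (*Psmb4*, or beta7, in B1).

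The catalytic beta subunits of the constitutive core were at near-equal levels. *Psmb5* (beta5, the chymotrypsin-like activity) spans chr15:33259039-33263634 of rn6 (minus strand) and was at 280.0, 319.8, 271.8 and 277.5 FPKM in A1, A2, B1 and B2. *Psmb6* (beta1, the caspase-like activity), at chr10:57131378-57133685 on the plus strand, was at 246.0, 289.6, 257.9 and 287.6 FPKM. *Psmb7* (beta2, the trypsin-like activity), at chr3:22890072-22951718 on the minus strand, was at 223.2, 257.7, 259.5 and 244.7 FPKM. The order of their means, 287.2 ± 17.9, 270.3 ± 3.53 and 246.3 ± 8.22 FPKM, did not hold in every library, since *Psmb7* was above *Psmb6* in B1 and *Psmb6* was above *Psmb5* in B2. *Psmb5* was above *Psmb7* in all 4 libraries.

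The immunoproteasome counterparts were all detected, at lower and very unequal levels. *Psmb8* (beta5i) spans chr20:3990809-3993772 of rn6 (plus strand) and was at 2.94, 3.0, 3.17 and 9.0 FPKM in A1, A2, B1 and B2. *Psmb9* (beta1i), at chr20:3973424-3978845 on the minus strand, was at 12.8, 13.7, 20.8 and 31.3 FPKM. *Psmb10* (beta2i), at chr19:37909544-37912027 on the minus strand, was at 28.5, 29.8, 29.9 and 36.9 FPKM. In each library the order was *Psmb10*, *Psmb9*, *Psmb8*, from high to low. B2 was the highest library for all 3 genes, and for *Psmb8* the other libraries lay close together. *Psmb8*, *Psmb9* and the peptide transporter genes *Tap1* and *Tap2* are neighbours in the major histocompatibility complex, and *Tap1* starts 457 bp from *Psmb9* on the other strand.

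The gap between the constitutive and the immune form therefore depended on the position in the ring. At the beta5 position *Psmb5* was 95.4, 106.7, 85.6 and 30.8 times as high as *Psmb8* in A1, A2, B1 and B2, a mean of 79.6 ± 30.3 whose large spread comes with the low value in B2. At the beta1 position *Psmb6* was 19.3, 21.2, 12.4 and 9.19 times as high as *Psmb9*. The ratio was smallest at the beta2 position, where *Psmb7* was 7.82, 8.64, 8.67 and 6.63 times as high as *Psmb10*. The ranges of the 3 ratios did not overlap across the libraries. Of the summed FPKM of the 6 catalytic genes, the immune forms held 5.58, 5.09, 6.39 and 8.71%.

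**Figure D2:**
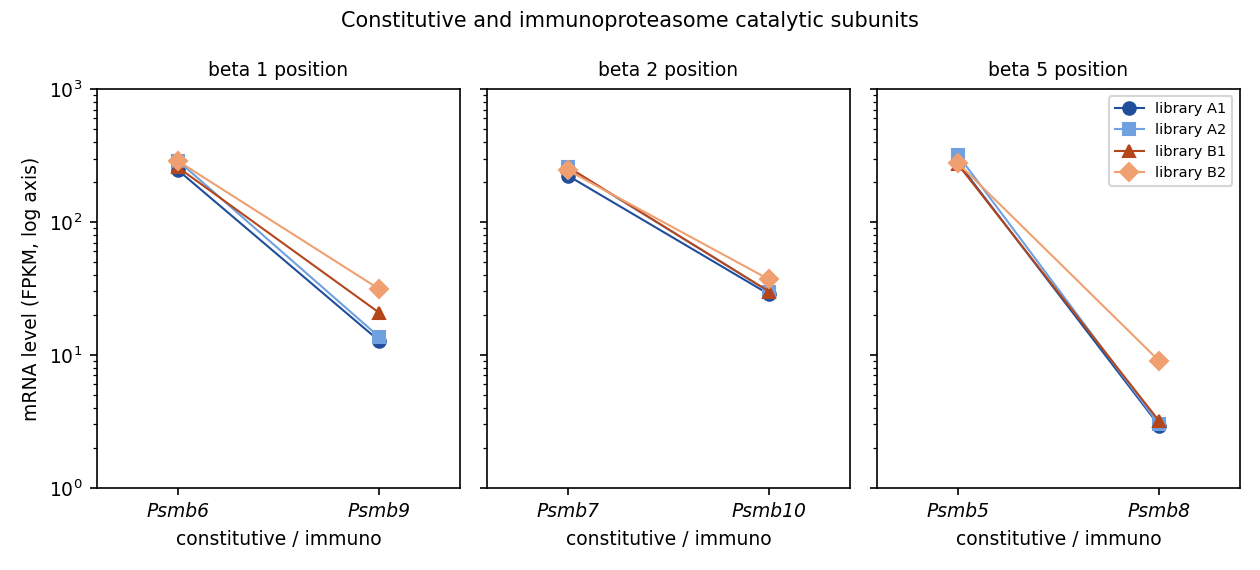
FPKM on a log axis of each constitutive catalytic subunit and its immunoproteasome counterpart, 1 panel for each position in the beta ring and 1 line for each library. The drop is steepest for *Psmb5* to *Psmb8* (30.8 to 106.7-fold) and shallowest for *Psmb7* to *Psmb10* (6.63 to 8.67-fold), and B2 lies highest for all 3 immunoproteasome genes.

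In the regulatory particle the subunits of one subcomplex differed several-fold although the assembled particle holds them in equal number. The base had a median of 120.8 ± 11.1 FPKM over 9 genes. *Psmd4*, a ubiquitin receptor (Rpn10), was its highest gene by mean, at 184.2, 197.7, 192.3 and 166.3 FPKM in A1, A2, B1 and B2, although the ATPase *Psmc2* was above it in B2. *Psmc6*, the ATPase Rpt4, was its lowest at 31.4, 34.8, 33.4 and 36.4 FPKM. *Psmc6* thus lay apart from the other ATPases, *Psmc1* to *Psmc5*, which ranged from 99.6 to 172.1 FPKM over the libraries. *Psmc4* (Rpt3), the highest ATPase by mean, was 4.39 ± 0.0477 times as high as *Psmc6*. The large scaffold subunits *Psmd1* and *Psmd2* lay between 76.9 and 115.5 FPKM.

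The lid had a median of 89.1 ± 2.38 FPKM over 8 genes. *Psmd6* (Rpn7) was the highest at 132.3, 146.1, 140.4 and 147.5 FPKM in A1, A2, B1 and B2. *Psmd11* (Rpn6), a scaffold that ties lid, base and core together, was the lowest at 28.1, 30.5, 29.6 and 29.2 FPKM. Their ratio was 4.82 ± 0.108 and lay between 4.70 and 5.05 in every library. *Psmd14* (Rpn11), the enzyme that cuts ubiquitin chains from the substrate, was the second lowest at 34.9, 38.0, 46.7 and 44.8 FPKM. The structural partner of Rpn11 in the lid, *Psmd7* (Rpn8), was at 89.2 to 99.3 FPKM.

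The order of the 31 constitutive subunits was similar but not identical in A and B, since neighbours such as *Psmb1*, *Psmb3* and *Psmb4* changed places. Their Spearman correlation between A and B was 0.986, which is across genes of the same tables and not over independent samples. The SD of their log2(FPKM + 1) values was 0.943 ± 0.00468, against 1.91 over all genes of at least 1 FPKM. The largest ratio between the replicate means of a constitutive subunit was 1.26 (*Psmc3*, the ATPase Rpt5), whereas the highest and the lowest of them differed 13.3-fold. Several members share sequence with processed copies, since 19 members have 46 pseudogenes in RefSeq of GRCr8, with 7 for *Psmb3*, and how reads were divided among them was not tested. *Psmb4*, *Psmd8* and *Psmd11* overlap another listed gene on the same strand, so their levels are less certain.

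The assembly chaperones, which help build the particle and leave it before it is finished, were lower. The median of the 6 genes in the tables was 31.9 FPKM. *Psmg4* was the highest at 82.8, 103.4, 100.3 and 81.1 FPKM in A1, A2, B1 and B2. *Psmd10* (gankyrin) was the lowest at 10.8, 11.1, 10.1 and 10.8 FPKM. *Psmg1* and *Psmg2*, which work as a pair on the alpha ring, were at 46.6 and 24.9 FPKM in A and 48.1 and 23.0 FPKM in B. All 6 genes overlapped between A and B, whereas 28.1% of all genes were higher in both libraries of B and 32.0% in both of A.

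The activators and the inhibitor of the core had means from 42.8 FPKM (*Psme3*) to 143.5 FPKM (*Psme1*). *Psme1* (PA28 alpha) was at 137.6, 143.2, 154.0 and 139.1 FPKM in A1, A2, B1 and B2. *Psme2* (PA28 beta), which joins *Psme1* in the interferon-inducible activator ring, was at 70.2, 76.7, 92.0 and 97.5 FPKM. Their ratio was 1.96, 1.87, 1.67 and 1.43, so *Psme1* exceeded its partner in every library. *Psme3* (PA28 gamma), a nuclear activator, was at 40.1, 42.3, 43.7 and 45.3 FPKM. *Psme4* (PA200), a large nuclear activator, was at 52.3, 45.4, 43.4 and 33.6 FPKM. *Psmf1* (PI31), known as an inhibitor of the core in vitro, was at 47.0, 51.3, 56.5 and 61.1 FPKM. *Psme2*, *Psme3* and *Psmf1* were higher in both libraries of B than in both of A, and *Psme4* was lower. *Psmc3ip*, which the naming rule also finds, encodes a protein of meiotic recombination and no subunit, and was at 36.1, 39.6, 35.2 and 33.4 FPKM.

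Replicates A and B were then compared member by member on the log2(FPKM + 1) scale. No member differed by at least 1 with both libraries of one replicate above both of the other (0 of 47), whereas 6.20% of all 10481 genes of at least 1 FPKM did. With a pseudocount of 0.1 in place of 1, which weights low genes more, *Psmb8* alone did (1 of 47, against 8.59% of all genes). At a difference of at least 0.58, *Psmb9* and *Psmb8* were higher in B (2 of 47, against 9.51% of all genes) and none was higher in A (0 of 47, against 6.95%). *Psmb9* differed by 0.93 and *Psmb8* by 0.84. Without library B2 the differences were 0.62 for *Psmb9* and 0.07 for *Psmb8*, so that of *Psmb8* rests on this library. The next in size were *Psme2* at 0.36, *Psmc3* at 0.33 and *Psmd14* at 0.32. *Psme4* was lowest in B relative to A at -0.34, followed by *Psmc3ip* at -0.14 and *Psmd13*, a lid subunit, at -0.13. Without B2 the difference was -0.17 for *Psme4* and 0.05 for *Psmd13*. *Psmd13* was at 98.3 and 92.6 FPKM in A1 and A2 and at 99.0 and 75.6 FPKM in B1 and B2, which overlap. The median absolute difference was 0.10 over the members and 0.24 over all genes.

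Without regard to size, 16 of 47 members were higher in both libraries of B, against 28.1% of all genes, and 4 were higher in both libraries of A, against 32.0% of all genes. The 4 were *Psma3*, *Psmb5*, *Psme4* and *Psmc3ip*. The split depended on the scaling and on B2. In TPM 13 members were higher in B (25.0% of all genes) and 9 in A (37.1%). Without B2, 22 members were higher in B (40.3% of all genes) and 9 in A (43.8%). The median difference over the 47 members was 0.05 in FPKM and -4.2e-05 in TPM, beside medians of -0.03 and -0.07 over all genes.

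**Figure D3:**
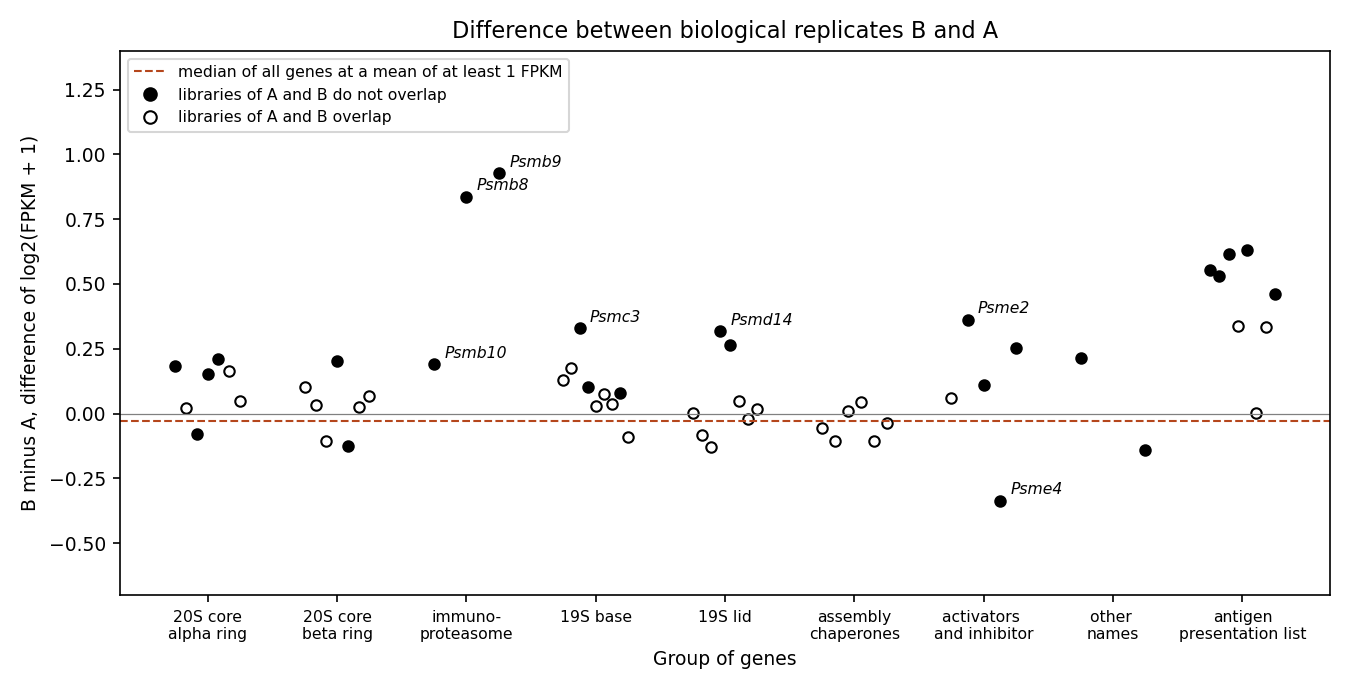
Difference between the means of replicates B and A on the log2(FPKM + 1) scale for the expressed members by group and for the listed genes of antigen presentation and interferon response, with filled marks where the libraries of A and B do not overlap and a dashed line at the median of all genes (-0.03). *Psmb9* (0.93) and *Psmb8* (0.84) lie highest, the 6 assembly chaperones lie near 0, and 5 of 8 genes of the antigen presentation list are filled marks above 0.

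The immunoproteasome genes and *Psme2* were set beside a list of 9 other genes of antigen presentation and interferon response, of which 8 are in the tables. In 5 of the 8 both libraries of B were above both of A, in 0 both were below, beside 28.1% and 32.0% of all genes, and the median difference was 0.49, or 0.33 without B2. *Tap1* was at 5.85, 6.48, 8.46 and 10.6 FPKM in A1, A2, B1 and B2. *Irf1*, a transcription factor of the interferon response, was at 6.20, 5.49, 8.19 and 11 FPKM. *Tap2*, *Tapbp* and *Erap1* were also higher in B, while *B2m*, *Ifngr1* and *Ifngr2* overlapped. The mesenchymal and meningeal markers were higher in B in 10 of 10 genes, with a mean summed level of 663 FPKM in A and 2809 FPKM in B. Of the 9 neural progenitor markers, 6 were higher in both libraries of A and 0 in both of B, and 2 were lower in B by at least 1 on the log2(FPKM + 1) scale without overlap. By the same rule 9 of the 10 mesenchymal and meningeal markers were higher in B, beside 6.20% of all genes in either direction. The differences of the 9 neural progenitor markers ran from -1.56 to 0.23, and *Vim* and *Nes* among them were higher in B by mean with overlapping libraries. Of the 8 neuron markers, 4 were higher in both libraries of A and 1 in both of B. The 1 higher in B, *Neurod6*, and 1 of the 4, *Neurod1*, had means of 0.42 and 0.29 FPKM, below 1 FPKM. The summed microglial and immune markers were at 0.648, 1.47, 2.91 and 3.67 FPKM, and the summed endothelial markers at 0.697, 0.725, 1.10 and 2.59 FPKM. Of these, 5 of 10 microglial and immune markers and 5 of 6 endothelial markers were higher in both libraries of B, all at means below 1 FPKM. *Ptprc*, the pan-leukocyte marker CD45, did not exceed 0.021 FPKM in any library, and *Cx3cr1*, a microglial receptor, was listed at 0 in 3 libraries. The part of these cell types in the differences of the immunoproteasome genes was not tested. In bulk RNA, more cells of one type and more RNA per cell cannot be told apart.

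The genes that act around the proteasome but carry other names were read from lists. The subunits *Adrm1* (Rpn13) and *Shfm1* (Sem1) had means of 148.2 and 203.5 FPKM. *Pomp*, the chaperone that joins the half-built rings of the core, was listed at 2 loci of chromosome 12, with means of 173 and 170.4 FPKM. Each alone was above the highest chaperone with a Psm name and below the median of the core, and their sum was 343.1 FPKM. *Akirin2*, which takes proteasomes into the nucleus, was at 100.8 FPKM. Of these 4, 0 were higher in both libraries of B and 1 was higher in both of A, beside 28.1% and 32.0% of all genes, which are also the shares to set beside the next counts. Of 6 listed proteins that bind the finished proteasome 4 were in the tables, and these, among them the deubiquitinases *Uchl5* and *Usp14*, had means of 6.94 to 78.4 FPKM and all overlapped between A and B. Of 10 genes of ubiquitin activation and substrate delivery, 2 were higher in B, 3 in A and 5 overlapped. Among the 5 in the tables of 6 listed transcription factors linked to proteasome genes, *Nfe2l2* was at 16.9 FPKM, and 3 were higher in B and 0 in A.

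Promoter windows of 300 bases were at hand for 43 of the 49 members and were searched on both strands for short motifs. The interferon response element (GAAA, any 2 bases, GAAA) was found in 7 of the 43 (16.3%), against 2.63% of the windows of genes at or above 1 FPKM and 3.92% of all 33469 windows. The 7 genes were *Psmb8*, *Psmb10*, *Psme2*, *Psma4*, *Psmb3*, *Psmd7* and *Psmg4*. The 2 matches of *Psmb10* began at -73 and -17 and that of *Psmb8* at -4, counted from the annotated start as 1 with the leftmost base of the match. The printed window of *Psmb9* held no match, which says only that these letters are not in this window. The antioxidant response element TGACNNNGC, the site of the NRF factors, was found in 8 of 43 (18.6%, against 14.8% and 12.1%), among them *Psmb5* at -60 and *Psmb6* at -24.

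The letters of the ETS family, CCGGAAG, were found in 15 of 43 windows (34.9%), against 18.2% of the windows of expressed genes and 8.75% of all windows. The YY1 motif, seen in capitals near the end of the printed *Psmb6* window, was found in 4 (9.30%, against 2.01% and 0.675%). The 4 genes were *Psmb6*, *Psmb7*, *Psmd5* and *Psmd11*, and each match lay downstream of the annotated start. All motif positions rest on annotated starts of GRCr8, which were not checked against Start-seq. The study moved many of the starts annotated in rn6. The Sp1 box GGGCGG was found in 31 (72.1%, against 64.5% and 33.1%) and the NF-Y box CCAAT in 21 (48.8%, against 37.8% and 37.5%). The NRF1 box (GCGC, any base, TGCGC), a different motif from the antioxidant response element, was found in 6 (14.0%, against 10.6% and 4.25%). The gamma activated site TTCNNNGAA was found in 4 (9.30%, against 6.27% and 8.87%) and the TATA box TATAAA in 4 (9.30%, against 6.22% and 14.2%). All 9 shares were above those of expressed genes, and no test was made. Beside genes of at least 100 FPKM, a level nearer to that of many members, the shares of the NRF1 box (13.9%) and the TATA box (9.29%) were close to those of the members. A match is a stretch of letters and not a measured site of binding.

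**Figure D4:**
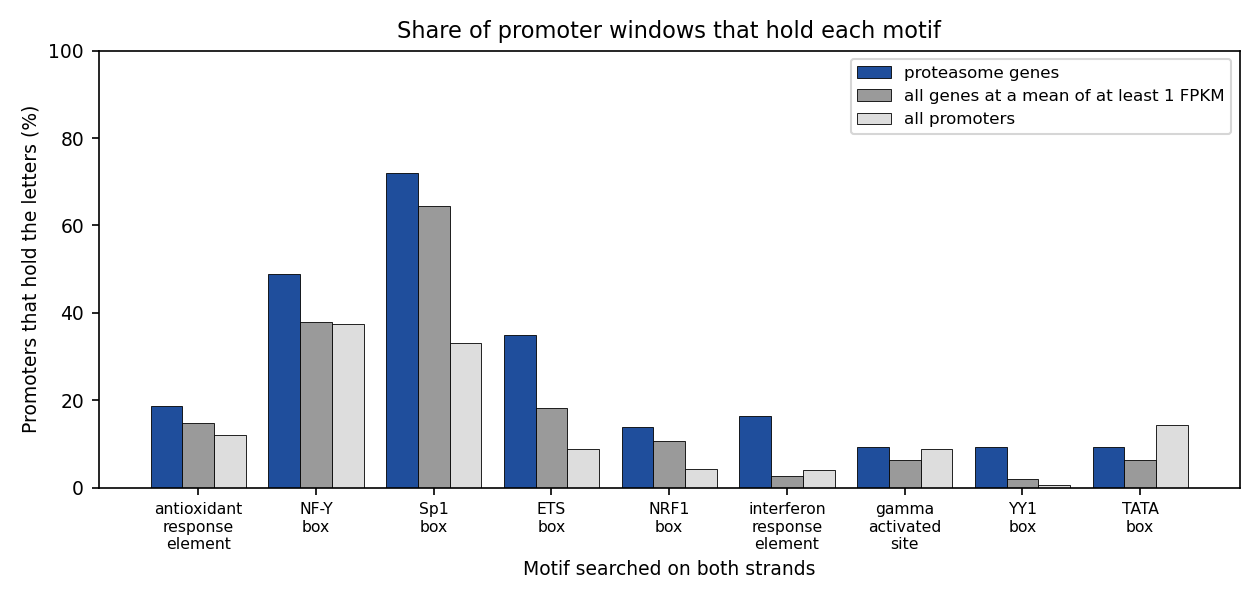
Percent of 300-base promoter windows that hold each motif on either strand, for the 43 members with a window, for all expressed genes and for all windows of the table. The member bars exceed those of expressed genes most, in ratio, for the interferon response element (16.3% against 2.63%) and the YY1 motif (9.30% against 2.01%).

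Some members share a start region with a gene on the other strand. Among the 47 expressed members, 8 (17%) had a listed neighbour pointing away within 1000 bp in rn6, against 9.72% of all expressed genes. The closest pair was *Psma2* with *Mrpl32*, a mitochondrial ribosomal protein gene, at 210 bp. *Psma7* and *Ss18l1* were 370 bp apart, and *Ss18l1* was at 4.29, 3.28, 2.55 and 3.16 FPKM in A1, A2, B1 and B2 while *Psma7* was the highest member. *Psmb9* with *Tap1* was the only one of the 8 pairs whose neighbour was higher in B by the means, at 0.55 on the log2(FPKM + 1) scale.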

How the data were processed

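PolyA RNA-seq libraries of 2 biological replicates with 2 technical libraries each were grouped by the sample labels. A supplementary list of the study can be read as pairing the libraries otherwise, A1 with B1 and A2 with B2, but the labels were followed, and the summed mesenchymal markers (673 and 653 FPKM in A1 and A2, 2550 and 3068 FPKM in B1 and B2) separate the libraries as the labels do. Reads had been aligned by the authors with STAR to rn6, and the deposited tables have the layout of StringTie, which the submitters' processing notes also name. The methods name another counting tool, Rsubread, for FPKM. The FPKM values were made by the authors and used as deposited. The deposited TPM values served for shares and as an alternative. The deposited coverage is a mean read depth that is not scaled and was used only to compare depth. The study states an average read number per replicate but the sources used here give none per library, so no counting intervals were made. Versions of the authors' tools are not given in the sources used here.

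FPKM was summed over rows of a gene name. Technical libraries were averaged within A and B, and the mean and SD are over A and B. Genes at a mean of at least 1 FPKM were compared on the log2(FPKM + 1) scale, which understates changes of low genes, without a test. All members may be named; values per library are given for catalytic, immunoproteasome, activator and inhibitor genes, the extremes of each group and the 3 largest differences in each direction. *Psma3l*, *Psmd14* and the A1 to B2 values of *Tap1*, *Irf1* and *Ss18l1* were added after values were seen. The members and lists were chosen with earlier results of these data known. Alternatives were a mean of at least 10 FPKM, at least 1 FPKM in every library, no filter on low values, a pseudocount of 0.1, a log2 difference of 0.58, TPM, scaled libraries, the highest row of a name, *Psmc3ip* left out, and samples left out. *Psmg3* is not in the tables used here, and some genes of the lists are not reported here. Promoters and gene names came from RefSeq of GRCr8, in which 48 members were matched, and coordinates of genes are those of rn6 in the tables. Counting was tested on simulated data. Python 3.11.15, pandas 2.3.3, numpy 2.4.6 and matplotlib 3.10.9 were used.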

Additional observations from a re-analysis of the deposited data

Results flagged for a closer look

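In 16 of 150 values examined, the highest or lowest of the 4 libraries stood far from the other libraries. Chance flags about 1 in 20 such sets, and the libraries are technical pairs and not 4 independent samples. B2 was the outlying library in 12 of the 16. Of the 49 proteasome genes 4 were concerned. *Psmb8* reached 9.0 FPKM in B2 where the other libraries lay between 2.94 and 3.17 FPKM, *Psmb10* at 36.9 FPKM in B2, *Psmc5* (the ATPase Rpt6) at 104.6 FPKM in B2 against 99.6 to 100.1 FPKM elsewhere, and *Psmb5* at 319.8 FPKM in A2. The median of the regulatory particle in B2 was the value of *Psmc5* itself, 104.6 FPKM, and so is no separate departure. The share of TPM of the regulatory particle was 0.306% in B2.

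Other values in B2 were 188.2 FPKM for the proteasome subunit *Adrm1*, 4.06 FPKM for the transcription factor *Maff*, 115.3 FPKM for the meningeal marker *Foxc1*, and 0.451, 1.0 and 0.525 FPKM for the endothelial markers *Pecam1*, *Cdh5* and *Kdr*. The coverage per FPKM was 6.83 in B2. In B1, *Pax6* was at 22.1 FPKM, and the microglial and immune markers *Cx3cr1* and *Laptm5* were at 0.016 and 0.220 FPKM.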

How the results depend on the processing

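For the 12 summary results 91 alternatives were computed, and 82 stayed within the spread between replicates, or within 1.5 times for counts. For differences between A and B, the spread was the SD over pairs of 1 library of A with 1 of B. Such pairs share libraries and include technical scatter. The median difference over the members, 0.05 in FPKM, changed sign to -4.2e-05 in TPM, and no other of the 12 summary results changed sign. Differences of single members could change sign without B2, as that of *Psmd13* did (-0.13 to 0.05). In TPM the medians of core and regulatory particle were 409.0 and 169.8, a change of unit. The members higher in A were 9 in TPM in place of 4, beside 37.1% of all genes in place of 32.0%. Without library B2, 31 members in place of 20 did not overlap between A and B, 9 of them higher in A, beside 40.3% (higher in B) and 43.8% (higher in A) of all genes. With a pseudocount of 0.1, 1 member differed between A and B (*Psmb8*, at 1.01) in place of 0, beside 8.59% of all genes, and the spread of the constitutive subunits was 0.951 in place of 0.943. At a log2 difference of 0.58, 2 members differed, both higher in B, beside 9.51% (higher in B) and 6.95% (higher in A) of all genes. With the highest row of a gene name in place of the sum, the members held 1.0% of TPM. With replicate A or B left out, the core exceeded the regulatory particle by 1.25 to 1.27 on the log2 scale, and the summed constitutive catalytic subunits exceeded the immune forms by 3.61 to 4.12, with a mean of 3.87 ± 0.362. Of 270 values of single genes and of the immune share of the catalytic subunits under alternatives other than TPM, 12 moved by more than the spread, 11 of them without B2. No paired analysis was possible because there was 1 condition and no result came from a test. With 2 biological replicates and a shallow B2, levels near 1 FPKM are uncertain.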
